A study of Homo sapiens with 6 samples.

Results

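PTX3, the long pentraxin, is described here together with 8 genes of the complement system, the C3, C1R and C1S components and the regulators CFI, SERPING1, CD46, CD55 and CD59, in a human cell line exposed to a kinase inhibitor. Members were taken as the probe sets of the array whose annotation names 1 of these 9 genes and no other, which gave 19 probe sets for 9 of the 19775 genes measured. PTX3 was chosen by its low log2 values after the compound on these same arrays, so its values in that comparison are given as a description, with no test. The complement genes were taken because the retinal pigment epithelium is known to need complement control, with earlier results of these data known.

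The cells were ARPE-19, an established line from human retinal pigment epithelium, the layer that supports the photoreceptors. One group of 3 arrays came from cells given 10 µM SRPIN803. SRPIN803 is known as an inhibitor of the splicing factor kinase SRPK1 and of the kinase CK2. The other group of 3 came from cells given 0.1% DMSO without the compound, and no DMSO content is given for the SRPIN803 arrays. Both treatments lasted 4 h in medium with 10% serum. All arrays thus came from 1 line with no genetic change, and the labels are silent on whether each replicate was its own culture. The p-values therefore reflect the scatter among these arrays, part or all of which may be technical. Expression was measured on Affymetrix 3' arrays as log2 values, where a difference of 1 is a doubling and a bright probe set of 1 gene cannot be set against that of another.

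The 6 arrays had medians between 5.25 and 5.27 and correlated at 0.9940 to 0.9977 with each other. Of 14 markers of retinal pigment epithelium, 10 lay above the median level of all probe sets (5.26), among them the keratins KRT8 and KRT18 and the factors OTX2 and MITF. The visual cycle genes RPE65 and LRAT lay below it, as did TYRP1 and MERTK. MITF was the 1 marker called, higher at 0.35 ± 0.07 after SRPIN803, and it lost the call without any 1 array (limma's adjusted p up to 0.101) and with the mean of its probe sets. Of the markers of other cell types, 4 of 8 of fibroblasts (COL1A1 and PDGFRB among them), 2 of 6 of endothelium (PECAM1 and CLDN5), 2 of 6 of macrophages (CSF1R and AIF1) and 1 of 5 of photoreceptors and glia (GLUL) lay above the median level, and none was called. The leukocyte marker PTPRC and the endothelial cadherin CDH5 were at levels of 2.82 and 2.65. The summed log2 levels of 6 macrophage markers were 26.9 to 27.6 in SRPIN803 and 26.5 to 26.6 in DMSO, and those of 5 photoreceptor and glia markers 29.8 to 30.3 in SRPIN803 and 29.4 to 29.8 in DMSO. The sums of the 14 pigment epithelium markers were 95.2 to 96.7 in SRPIN803 and 94.5 to 95.2 in DMSO. In these 3 lists every SRPIN803 sum lay above every DMSO sum. The nearest sums were close, at 29.82 in SRPIN803 and 29.77 in DMSO for photoreceptors and glia, and 95.23 and 95.18 for pigment epithelium. In the fibroblast (43.0 to 44.7 in SRPIN803, 43.3 to 44.4 in DMSO) and endothelium lists (27.9 to 28.1 in each group) the groups overlapped. Single genes had groups that did not overlap in 25.6% of cases, and no such share was taken for sums. Most macrophage, photoreceptor and glia markers in these sums lay below the median level. The part of other cell types in the results was not tested.

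Complement is a chain of serum proteases and their substrates that tags surfaces for removal. C1R and C1S are the proteases of the first complex, C3 is the protein on which all routes of activation meet, and every healthy cell carries inhibitors that stop the chain on its own surface. PTX3 is a secreted pattern recognition protein, made by many cell types when they meet inflammatory cytokines or microbial products, and it binds both C1q, which starts the classical route, and the inhibitor factor H. In the retina, complement proteins and their inhibitors are made in part by the retinal pigment epithelium itself, and variants in several of these genes are associated with macular degeneration.

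PTX3 lies on chromosome 3 at 157436850 to 157443633 (GRCh38.p14, plus strand), within the span of VEPH1 (157259742 to 157503605, minus strand). The 250 bases before its start are shown because PTX3 is the member that differed between the groups, and those of CXCL8 because CXCL8, a chemokine gene, had the pattern most like that of PTX3 (described further on). Both come from the RefSeq promoter table for GRCh38.p14, at chr3:157436600-157436849 and chr4:73740319-73740568, plus strand, and run 5′ to 3′ with matches to 6 searched motifs in capitals.
PTX3: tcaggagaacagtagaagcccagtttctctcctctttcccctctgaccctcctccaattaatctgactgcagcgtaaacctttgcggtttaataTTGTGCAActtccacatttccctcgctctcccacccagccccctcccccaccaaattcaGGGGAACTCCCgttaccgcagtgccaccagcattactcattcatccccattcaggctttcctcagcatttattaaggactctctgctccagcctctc
CXCL8: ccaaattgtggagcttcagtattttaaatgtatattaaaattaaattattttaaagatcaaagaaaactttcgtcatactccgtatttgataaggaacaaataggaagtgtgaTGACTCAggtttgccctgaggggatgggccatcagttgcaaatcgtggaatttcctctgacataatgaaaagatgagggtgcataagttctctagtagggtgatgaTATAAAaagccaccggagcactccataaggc
The capitals in PTX3 mark TTGTGCAA, which holds TTGCNNAA on the other strand, a form bound by C/EBP factors, at 156 to 149 bases before the start. They also mark the run GGGGAACTCCC, in which 2 overlapping matches to the NF-kappaB consensus lie at 97 to 88 and at 96 to 87 bases before the start. In CXCL8 they mark TGACTCA, bound by AP-1 factors, at 137 to 131 bases and TATAAA, the form of a TATA box, at 31 to 26 bases. Only exact matches to the searched forms are in capitals. A site that departs from them stays in lower case, so a window without capitals for a factor may still hold its site.

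The same letters are common enough in promoters to be read only as a description. Both strands were searched in all 35116 windows of the table, and a window held the NF-kappaB consensus in 9.96%, TTGCNNAA in 9.05%, TGACTCA in 4.20% and TATAAA in 10.7% of cases. The table held 11 windows for 6 of the members, PTX3, CFI, C1R, CD46, CD55 and CD59, and names none for C3, C1S and SERPING1. Among these 11 windows the NF-kappaB consensus was found in that of PTX3 alone. TTGCNNAA was also found in windows of C1R and CD59, and TGACTCA in 1 of CD59. TTCNNNGAA, the form bound by STAT factors (6.57% of all windows), was found in windows of C1R and CD59. GGGCGG, the form bound by SP1 (42.6%), was found in 4 of the 11 windows, among those of CD46, CD55 and CD59. The window of CFI matched none of the 6 motifs.

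PTX3 was far lower after SRPIN803. Its 1 probe set read 6.99, 7.07 and 6.97 on the SRPIN803 arrays, against 8.84, 9.13 and 9.14 on the DMSO arrays. The 3 SRPIN803 values lay close together, the 3 DMSO values spread further with replicate 1 lowest, and the groups were far apart. The means were 7.01 ± 0.05 in SRPIN803 and 9.04 ± 0.17 in DMSO (SD, n = 3 each), a log2 change of -2.02 ± 0.09 (limma's standard error), or a level 4.07-fold lower (95% interval 3.51 to 4.71). In all, 2 of the 19775 genes were lower by at least as much, PTX3 itself included. PTX3 was chosen by this fall, and the interval does not allow for that choice. Both the interval and the rank are therefore description only. With any 1 array left out the log2 change of PTX3 stayed between -2.12 and -1.97. In a bulk sample, fewer cells making the transcript and less transcript per cell cannot be told apart.

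**Figure D1:**
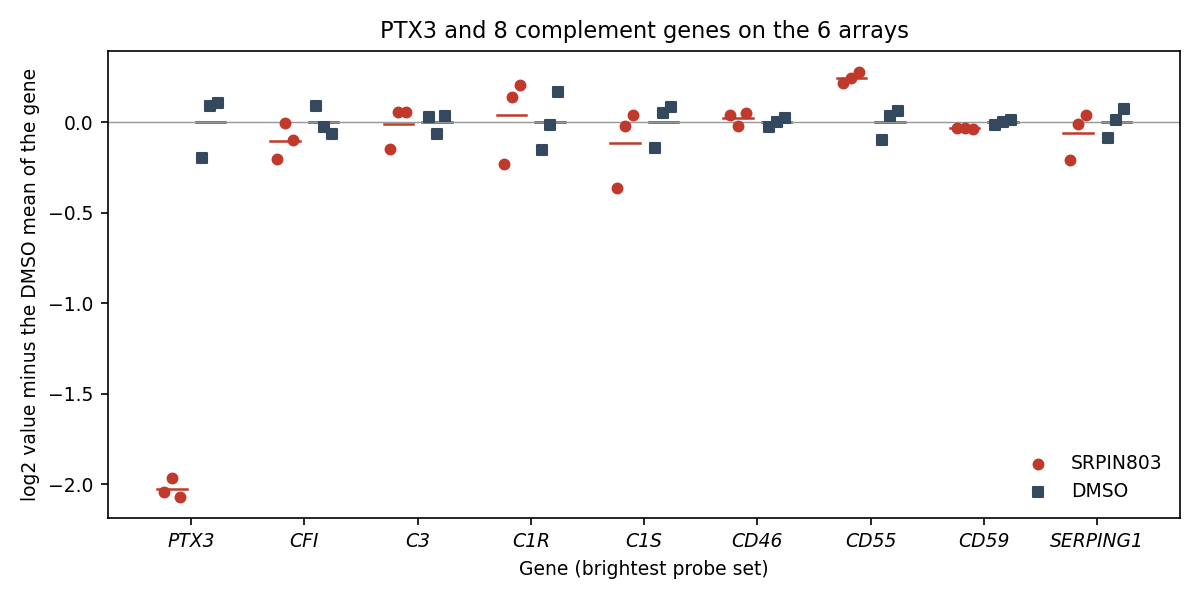
Log2 values of PTX3 and the 8 complement genes (brightest probe set of each) minus the gene's own DMSO mean, per array, with SRPIN803 as circles, DMSO as squares and group means as lines. PTX3 sits about the log2 change of -2.02 in SRPIN803, while the means of the complement genes lie between -0.12 and 0.25.

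None of the 8 complement genes passed the test. Limma called 0 of the 8 at an adjusted p under 0.05, beside 5.84% of all genes (1154 of 19775; 324 to 687 without any 1 array). The complement genes had log2 changes of -0.12 to 0.25 with a median of -0.02, where the median over all genes was 0.02. Their 95% intervals ran from -0.39 to 0.40 at the widest, that is from 1.31-fold lower to 1.32-fold higher, in the fit of the brightest probe set over all 6 arrays. Limma's adjusted p ran from 0.0704 to 0.963, and 1 of the 8, CD55, had an unadjusted p under 0.05. That a gene missed the threshold does not show that it stayed the same.

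The first-complex proteases varied more between arrays than between groups. C1R, the protease that activates C1S, read 7.28, 7.65 and 7.72 in SRPIN803, against 7.36, 7.50 and 7.68 in DMSO. C1S, which cleaves the next components, read 8.46, 8.80 and 8.86 in SRPIN803, against 8.68, 8.88 and 8.91 in DMSO. In both genes the groups overlapped and replicate 1 was the lowest array of each group. The log2 changes were 0.04 ± 0.13 for C1R (95% interval -0.26 to 0.34, limma's adjusted p = 0.910) and -0.12 ± 0.12 for C1S (-0.39 to 0.16, adjusted p = 0.673). The sign of both turned with single arrays left out, C1R running from -0.04 to 0.17 and C1S from -0.19 to 0.01. A dim second probe set of C1S, below the median level, was at -0.06 ± 0.17. C1R and C1S lie side by side on chromosome 12, at 7080219 to 7092445 and 7060718 to 7071032.

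SERPING1, the C1 inhibitor that removes active C1R and C1S from their complex, followed the same arrays. Its values were 7.34, 7.54 and 7.59 in SRPIN803, against 7.46, 7.56 and 7.62 in DMSO, again with replicate 1 lowest in each group and with groups that overlapped. The log2 change was -0.06 ± 0.08 (95% interval -0.25 to 0.13, limma's adjusted p = 0.771). On SRPIN803 replicate 1, C1R lay 0.27, C1S 0.25 and SERPING1 0.15 below its own group mean (log2). Replicate 1 was lowest in both groups in 4 of the 9 members, C1R, C1S, SERPING1 and CD55, and in 16.2% of all genes. Whether the 4 share more than the array was not tested.

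C3 showed the smallest difference of the members. It read 8.57, 8.78 and 8.78 in SRPIN803, against 8.75, 8.66 and 8.76 in DMSO, with overlapping groups. The log2 change was -0.01 ± 0.08 (95% interval -0.19 to 0.17, limma's adjusted p = 0.963), and its sign turned without DMSO replicate 1, DMSO replicate 3 or SRPIN803 replicate 1. CFI, factor I, the protease that cuts activated C3 and C4 with the help of cofactors, read 5.96, 6.16 and 6.06 in SRPIN803, against 6.25, 6.14 and 6.10 in DMSO. These groups overlapped too, at a log2 change of -0.10 ± 0.07 (95% interval -0.28 to 0.07, adjusted p = 0.525). The second probe set of CFI lay below the median level and changed by -0.09 ± 0.10. Even the brighter probe set of CFI averaged 6.11, little above the median level, where RMA values understate changes.

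Of the 3 surface inhibitors, CD55 was the member with the largest change after PTX3, and it did not pass the test. CD55, decay-accelerating factor, which takes apart the enzymes that cleave C3, read 10.05, 10.08 and 10.11 in SRPIN803, against 9.74, 9.87 and 9.90 in DMSO. Every SRPIN803 array lay above every DMSO array, which was so for 2 of the 8 complement genes in either direction, where groups did not overlap in 25.6% of all genes. The log2 change was 0.25 ± 0.06, or 1.19-fold (1.07 to 1.32), with limma's adjusted p = 0.0704. CD55 was called when genes below the median level were left out (adjusted p = 0.0275) and with a variance trend on intensity (0.0144), and it was not called with any 1 array left out (0.120 to 0.186). The 2 other probe sets of CD55, both bright, changed by 0.09 ± 0.10 and 0.0039 ± 0.083 with overlapping groups, and the mean of all 3 gave 0.11 (adjusted p = 0.480).

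CD59 and CD46 had the narrowest intervals. CD59, which blocks the last step of pore assembly, read 12.72, 12.73 and 12.72 in SRPIN803, against 12.74, 12.76 and 12.77 in DMSO. The groups did not overlap, but the gap was small, at a log2 change of -0.03 ± 0.05 (95% interval -0.15 to 0.09, limma's adjusted p = 0.805). The 4 other probe sets of CD59 changed by -0.13 to 0.04, all with overlapping groups. CD46, the membrane cofactor with which factor I cuts activated C3, read 11.86, 11.81 and 11.88 in SRPIN803, against 11.80, 11.83 and 11.85 in DMSO, at 0.02 ± 0.06 (95% interval -0.11 to 0.15, adjusted p = 0.871). Both other probe sets of CD46 were below 0, at -0.10 ± 0.12 and -0.03 ± 0.11, and the mean of all 3 was at -0.04, so the sign depended on the probe set.

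**Figure D2:**
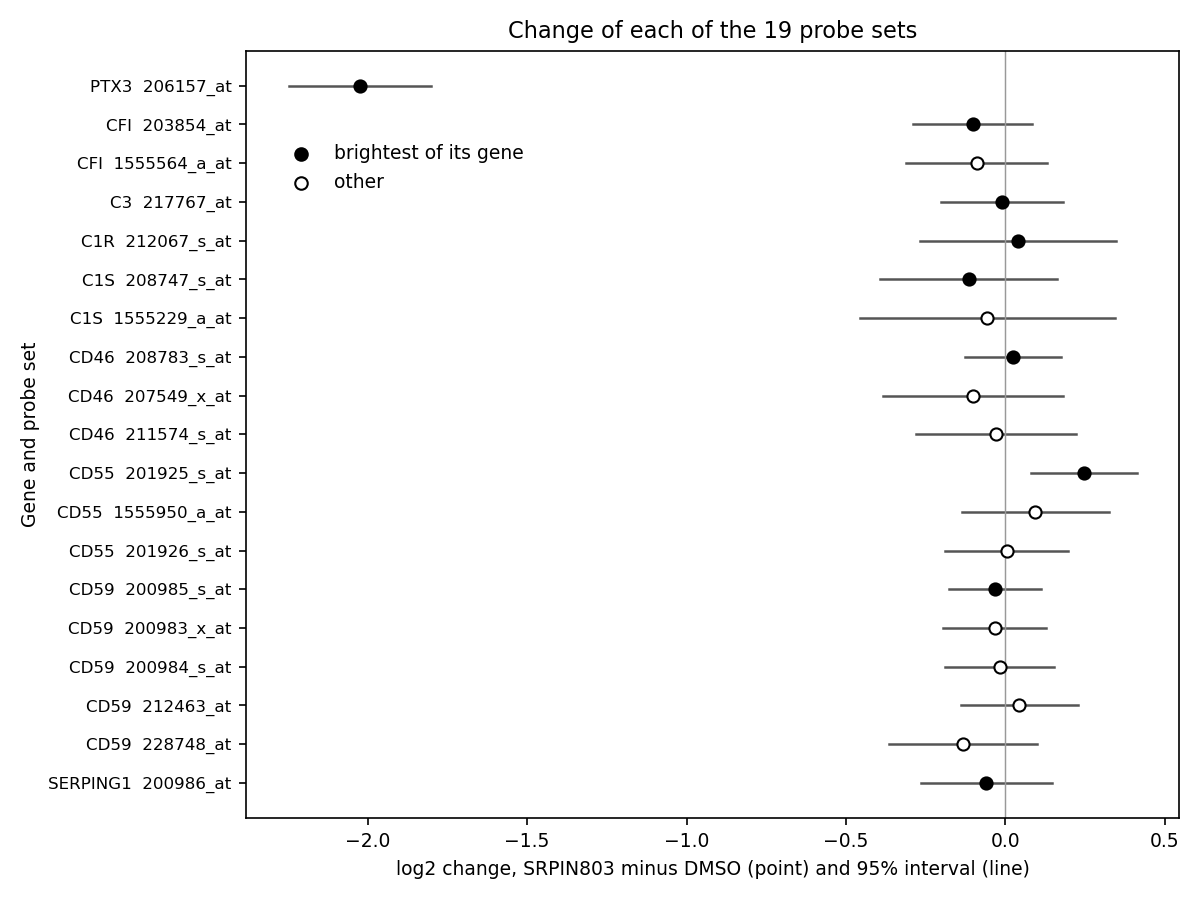
Log2 change (SRPIN803 minus DMSO) of each of the 19 probe sets with its 95% interval, filled for the brightest of each gene. The 18 complement probe sets lie between -0.13 and 0.25 and PTX3 lies at -2.02.

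Fitted over all 54613 probe sets, 0 of the 18 complement probe sets were called by limma, beside 2.22% of all probe sets, and 1 of the 18 had an unadjusted p under 0.05. Of the 18, 6 were higher and 12 lower after SRPIN803, and the smallest adjusted p was 0.143, that of the brightest CD55 probe set. In all, 17 of the 19 member probe sets lay above the median level, and 2, of CD46 and CD59, carry the suffix of probe sets that can also bind related transcripts.

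The rest of the complement system was also without a call. Outside the members, 59 of 68 listed complement, pentraxin, PTX3-binding and contact system genes had a probe set of their own, of which 15 lay above the median level and 44 below it. Limma called 0 of the 59, with 1 at an unadjusted p under 0.05, beside 5.84% of all genes called, and no alternative setting called any. Log2 changes ran from -0.21 to 0.20 with a median of 0.01, and among the 15 brighter genes from -0.09 to 0.16. The low level of most of these genes limits what their changes can show.

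The gene with the smallest p of each list gives the scale. In the classical and lectin pathway (13 measured, 3 above the median level) it was the ficolin gene FCN2, at -0.11 ± 0.06 with limma's adjusted p = 0.413, and a dimmer probe set of FCN2 was at 0.15. In the alternative pathway (3 measured) it was factor B, CFB, at 0.10 ± 0.06 (0.447), and a dimmer probe set of CFB was at -0.11. In the terminal pathway (7 measured) it was the pore component C6, at -0.16 ± 0.10 (0.456). Among soluble and surface regulators (11 measured) it was SUSD4 at -0.20 ± 0.10 (0.303), with its dimmer probe sets at -0.01 and -0.11. Among complement receptors (10 measured) it was the C5a receptor C5AR2 at 0.07 ± 0.07 (0.638). All 5 of these genes had their brightest probe set below the median level.

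No measured relative or partner of PTX3 passed the test. Among 4 other pentraxin genes CRP, the short pentraxin of the acute phase, had the smallest p, at -0.21 ± 0.08 (limma's adjusted p = 0.195). Its values were 3.69, 3.45 and 3.56 in SRPIN803, against 3.69, 3.83 and 3.79 in DMSO, below the median level. A dimmer probe set of CRP was at -0.07. Of 7 genes whose proteins bind PTX3 or build the matrix it sits in, TNFAIP6 had the smallest p, at -0.13 ± 0.07 (0.381). FGF2, a growth factor that PTX3 binds and the 1 bright gene of that list, named after its values were seen, was at -0.07 ± 0.08 (0.712). In the contact system, which SERPING1 also holds in check, F11 was at -0.17 ± 0.14 (0.585) and 0 of 4 genes were called. The dimmer probe sets of F11 ran from -0.07 to 0.14.

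**Figure D3:**
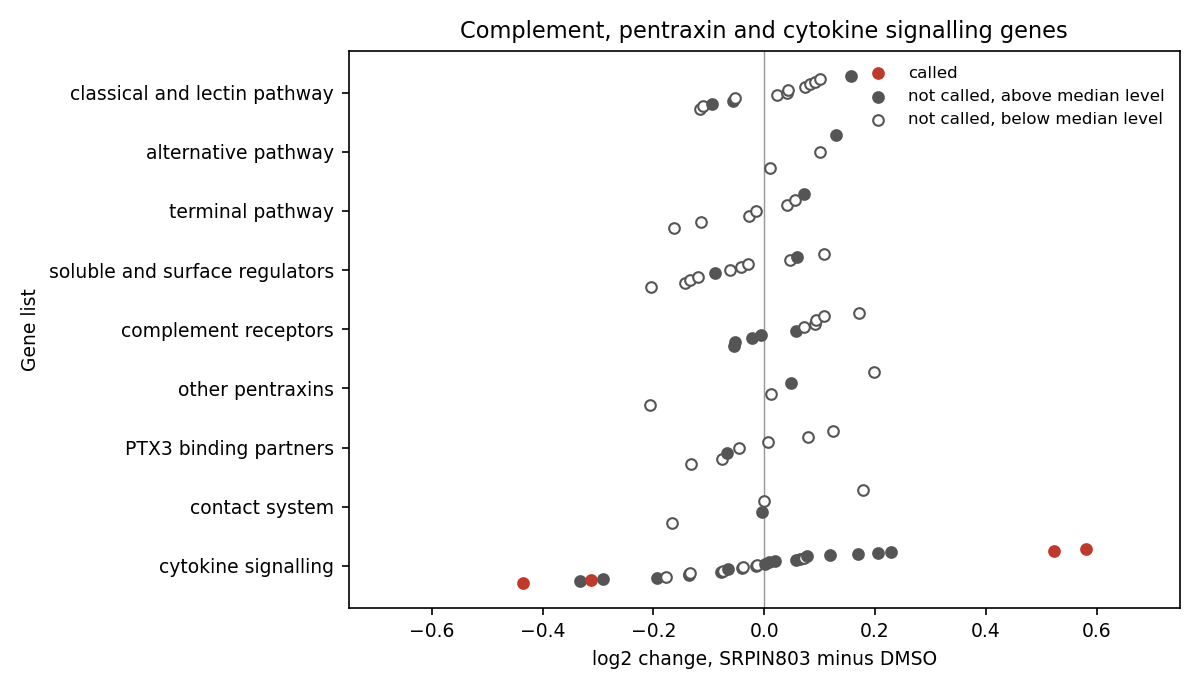
Log2 change (SRPIN803 minus DMSO) of each listed gene outside the members, by list, red where called and open where below the median level. The 59 complement, pentraxin, partner and contact system genes lie between -0.21 and 0.20 with 0 called, and 4 of 29 cytokine signalling genes are called.

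A few receptors and factors of the cytokine pathways known to drive PTX3 and complement genes were called, in both directions. Of 29 such genes measured (22 above the median level) 2 rose and 2 fell by limma's adjusted p, beside 3.46% of all genes called higher and 2.37% called lower, and the list's median log2 change was -0.01. That count depended on the processing, being 7 without dim genes or with the variance trend and 1 with the mean of all probe sets. It was 1 without DMSO replicate 1 or 2, and 2 without DMSO replicate 3 or SRPIN803 replicate 1 or 2. The shares of called genes are over all genes, dim ones included, so they are not matched to the level of this list.

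TLR3, the receptor for double-stranded RNA, rose the most among them. It read 6.66, 6.72 and 6.60 in SRPIN803, against 6.05, 6.17 and 6.02 in DMSO, 1.50-fold higher (95% interval 1.34 to 1.67, limma's adjusted p = 0.00503), and it stayed called with any 1 array left out (0.0163 to 0.0302). A second bright probe set of TLR3 was at 0.32 ± 0.07, and the mean of its probe sets at 0.38 missed the threshold (adjusted p = 0.0505). LIFR, a receptor subunit for cytokines of the interleukin-6 family, read 7.08, 7.27 and 7.05 in SRPIN803, against 6.51, 6.62 and 6.71 in DMSO. It rose by a log2 of 0.52 ± 0.08 (adjusted p = 0.0145), lost the call without DMSO replicate 1 (0.0526) or 2 (0.0622), and its 4 other probe sets ran from -0.11 to 0.37 (0.20 for the mean of all, 0.0872).

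IL1B, the cytokine interleukin-1 beta and an inducer of PTX3, fell. It read 5.77, 5.83 and 5.99 in SRPIN803, against 6.29, 6.23 and 6.38 in DMSO, a log2 change of -0.43 ± 0.08 (limma's adjusted p = 0.0216), and its other probe set was at -0.50 ± 0.12. The groups did not overlap in either probe set. The brightest averaged 6.08 and the other 5.60, little above the median level, where RMA values understate changes. IL1B lost the call without any 1 DMSO replicate and without SRPIN803 replicate 1 or 2, with adjusted p up to 0.0922. IRF1, a transcription factor induced by interferon, read 7.02, 6.97 and 7.05 in SRPIN803, against 7.37, 7.21 and 7.40 in DMSO. It fell by 0.31 on the log2 scale (adjusted p = 0.0437) and lost the call without any 1 array (up to 0.164), with the replicate number as a block (0.0620) and with the mean of its probe sets (0.0803).

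Other inducers and receptors did not pass. Chosen after their values were seen, IL1RAP, the partner subunit of the interleukin-1 receptor, was at -0.33 ± 0.08 (limma's adjusted p = 0.0577), the adaptor MYD88 at -0.29 ± 0.07 (0.0629) and C/EBP beta, CEBPB, at 0.23 ± 0.06 (0.0903). Named in the same way, the receptors TLR4 and TNFRSF1A were at 0.21 ± 0.07 (0.131) and -0.19 ± 0.07 (0.191). The receptor IL1R1 itself was at -0.04 ± 0.09 (0.870), and the cytokine IL6 at -0.08 ± 0.09 (0.713).

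**Figure D4:**
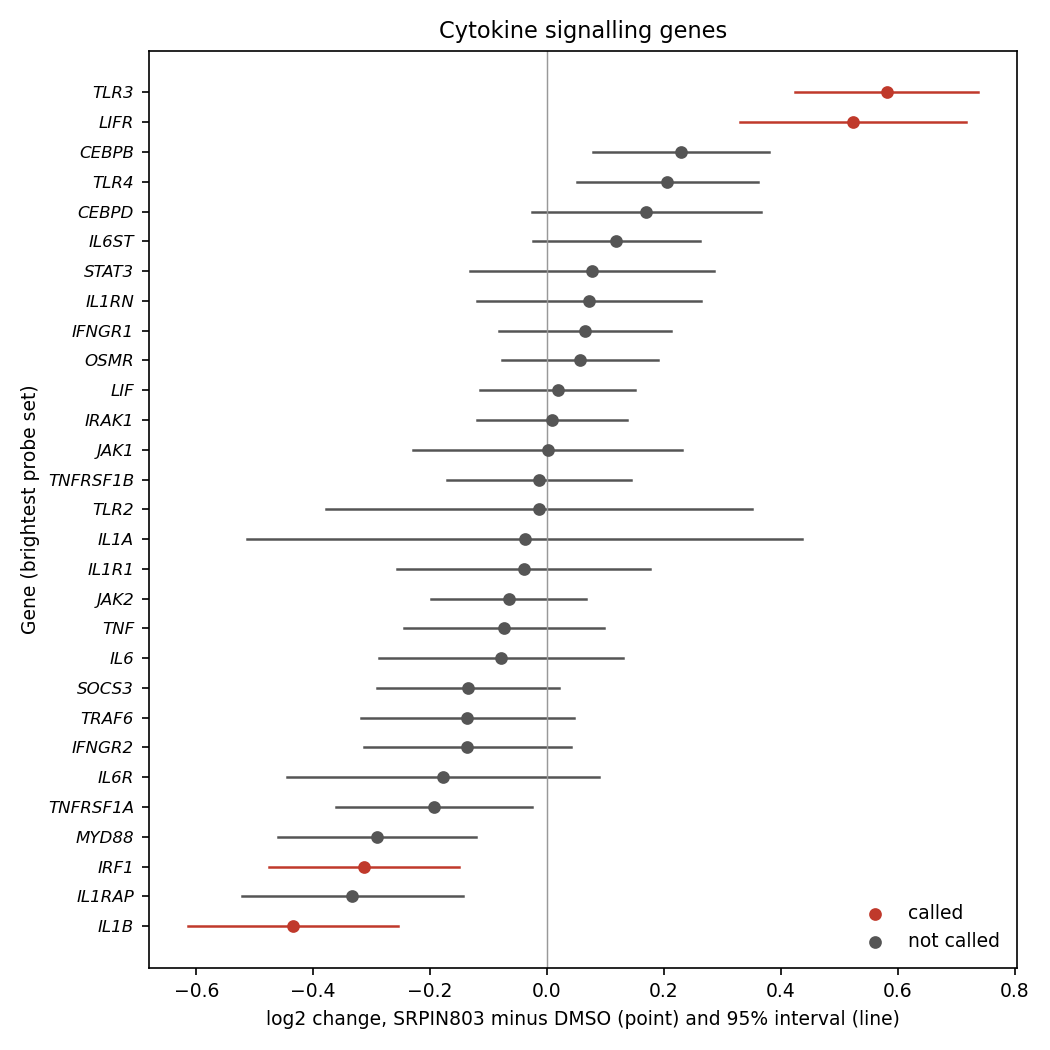
Log2 change (SRPIN803 minus DMSO) with its 95% interval for the 29 cytokine signalling genes, red where called. TLR3 and LIFR lie above 0 and IL1B and IRF1 below it among the 4 called genes.

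The gene whose pattern over the 6 arrays was most like that of PTX3 was CXCL8, a chemokine that draws neutrophils. Likeness was taken as the root mean square difference between the 2 genes in log2 values counted from each gene's own DMSO mean, and a flat gene would lie at 1.44. CXCL8 lay at 0.193, with 8.47, 8.83 and 8.23 in SRPIN803, against 10.61, 10.76 and 10.71 in DMSO, and with its other probe set at -2.02 ± 0.21. The SRPIN803 arrays spread more in CXCL8 than in PTX3, and replicate 3 was the lowest of them in both genes. RUSC1-AS1, an antisense RNA, followed at 0.567, the sterol enzyme gene HMGCS1 at 0.574, the haem oxygenase gene HMOX1 at 0.636 and the lipase gene LIPG at 0.653. These 4 changed by -1.33, -1.23, -1.15 and -1.12, and they stand far from PTX3 in size. The second probe set of RUSC1-AS1 was at -0.43 ± 0.10 and that of HMGCS1 at -0.59 ± 0.14. Since this likeness is mostly the difference between the groups, which also chose PTX3, it is a description and carries no test.

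**Figure D5:**
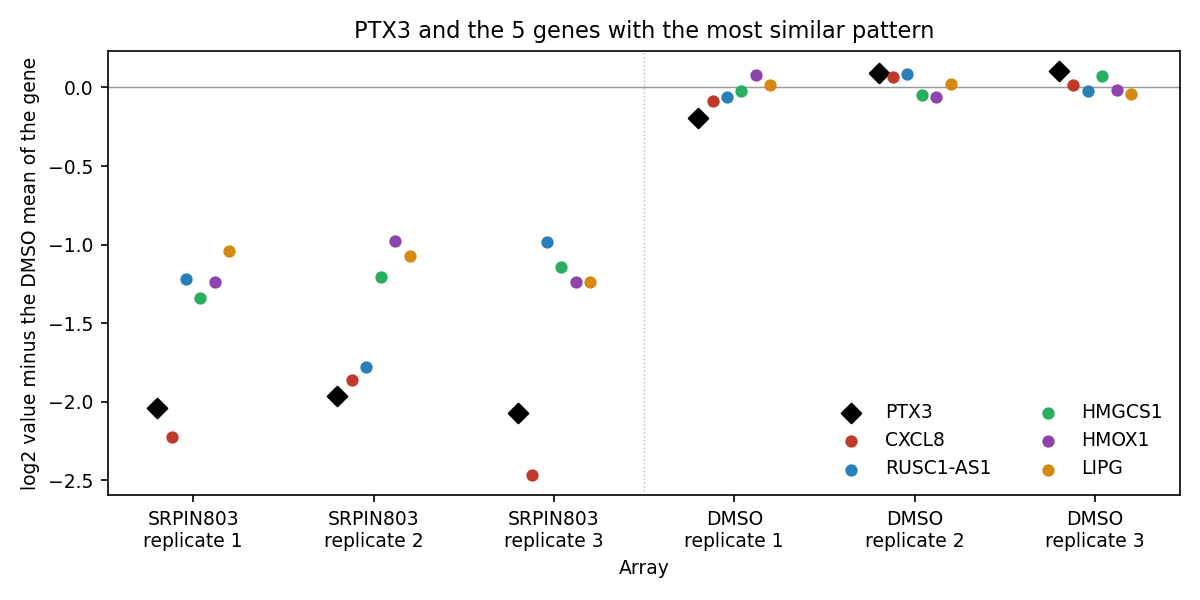
Log2 values minus the gene's own DMSO mean on each array for PTX3 (diamonds) and the 5 genes most like it (circles). On the SRPIN803 arrays CXCL8 lies beside PTX3, while RUSC1-AS1, HMGCS1, HMOX1 and LIPG change by -1.33 to -1.12 on average.

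The genes around PTX3 did not pass the test. VEPH1, whose span holds PTX3 on the opposite strand, read 9.03, 8.90 and 9.03 in SRPIN803, against 8.72, 8.77 and 8.69 in DMSO, a log2 change of 0.26 ± 0.06 (limma's adjusted p = 0.0538). The groups did not overlap in this brightest probe set, and the 3 others were at -0.15 to 0.09. On the far side, SLC66A1LP, a transcribed pseudogene, was at -0.09 ± 0.06 (0.463) in the brighter of its 2 probe sets. Its values there were 8.45, 8.57 and 8.51 in SRPIN803, against 8.59, 8.61 and 8.61 in DMSO. These groups did not overlap either, as in 25.6% of all genes. The noncoding RNA gene before PTX3, LOC101928236, has no probe set of its own here and was not analysed.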

How the data were processed

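RNA of 6 ARPE-19 samples (100 ng each) was hybridised to Affymetrix arrays. The deposited values are on a log2 scale, with a value for each probe set on each array, and were made by the authors with RMA, per the submitters' processing notes. The version and settings of RMA are not given in the sources used. RMA equalises the arrays, so a change in total RNA per cell cannot be seen. Arrays give no read depth, and 3 per group limit the precision.

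Of 54675 probe sets, 62 controls were left out. Platform annotation named 1 gene for 41091, several for 1801 and none here for 11721, and no symbol changed in the reference gene table. Of several probe sets the one with the highest mean stood for its gene. Groups came from the titles. Limma 3.58.1 in R 4.3.3 (lmFit, eBayes, group only, 4 residual degrees of freedom, two-sided) was run over all 19775 genes and over all 54613 probe sets, with Benjamini-Hochberg adjustment over each and calls under 0.05. An exact permutation test of 3 against 3 cannot go below 0.1 and was not used.

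The members and the gene lists were chosen with earlier results of these data known. Named genes were all members, up to 4 called genes of each list or else that with the smallest p, the 5 genes most like PTX3 above the median level, and its neighbours. Alternatives were the replicate block, each array left out, dim genes left out, the mean of all probe sets, cyclic loess, a variance trend and array weights. For single genes the dim gene filter and the trend were added after seeing the data. Plots used matplotlib 3.10.9 in Python 3.11.15.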

Additional observations from a re-analysis of the deposited data

How the results depend on the processing

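PTX3 kept its direction under every alternative run, with log2 changes of -2.05 to -2.02, and -2.12 to -1.97 with 1 array left out. Since PTX3 was chosen by its fall on these arrays and its groups lay far apart, that direction was bound to hold. The 0 calls among the 59 other complement, pentraxin and partner genes held under every alternative run. The count over all genes moved from 1154 to 1904 without dim genes, 1965 with the variance trend, 689 with the replicate block and 324 to 687 with 1 array left out. That over all probe sets moved from 1214 to 2667, 2731, 304 and 215 to 716 under the same settings. Of the cytokine signalling genes 4 were called, 7 without dim genes, 7 with the variance trend, 1 with the mean of all probe sets and 1 to 3 with 1 array left out. Uncalled changes near 0 turned their sign with 1 array left out in C3 (-0.0455 to 0.0583), C1R (-0.0440 to 0.174), C1S (-0.193 to 0.00887) and SERPING1 (-0.110 to 0.0156). With the mean of all probe sets CD46 (-0.0353), FCN2 (0.0616) and CFB (-0.0048) turned theirs. For same-numbered arrays the correlations of deviations from the group means were 0.179, -0.0608 and 0.107. SRPIN803 replicate 1 correlated best with its own number, and SRPIN803 replicates 2 and 3 did not. Whether same-numbered arrays share more than a number was not tested. With the replicate block IRF1 lost its call and no complement member gained one. Of the 59 listed genes 44 lay below the median level, and whether they stood above background was not tested.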

Other observations

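Probe sets whose annotation names several genes were left out of the comparisons. Of 3 that name C4A, C4B and a further C4B copy, the fourth complement component, the 2 above the median level changed by 0.10 ± 0.09 and 0.04 ± 0.13 (limma's adjusted p = 0.679 and 0.939 over all probe sets). Of 2 that name VTN, vitronectin, an inhibitor of the terminal complex, and SEBOX, the brighter was at -0.02 ± 0.09 (0.962) and the dimmer at -0.22 ± 0.08 (0.254).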
